A study of Mus musculus with 16 samples.

Results

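The arterial endothelial genes described here are Gja4, Gja5, Bmx, Dkk2, Efnb2, Fbln2, Fbln5, Sema3g, Mgp and Unc5b. These 10 genes, taken by name from a table of 43346 genes, are in wide use as markers of arterial endothelium, and all 10 were found in the table. They were read in bulk RNA-seq of endothelial cells (ECs) sorted from whole mouse lung. The animals were Col1a1-GFP transgenic FVB mice of both sexes, in which the reporter labels collagen-producing cells and let them be discarded, and the sort kept CD31+ cells that were negative for CD45, EpCAM and GFP. Young Sham (2 months, n = 5) and Aged Sham (18 months, n = 3) mice received PBS into the trachea. Young Bleo (2 months, n = 4) and Aged Bleo (18 months, n = 4) mice received bleomycin, a drug that injures the lung epithelium and leads to fibrosis, and all lungs were taken 30 days later. The sex of each library was not used here because the labels do not give it.

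Arteries carry blood at higher pressure than capillaries and veins, and their ECs hold a program set early in development by Notch signaling, SoxF factors and flow. ECs of arteries are coupled by connexins, carry ephrin-B2 on the surface where venous ECs carry its receptor EphB4, and lie on an elastic matrix to which they contribute fibulins. In the lung they make up a small share of the endothelium, most of which is capillary, of the general type or of the thin gas-exchange type called aerocytes.

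Each library held between 20907113 and 71035301 counts assigned to genes, and each member had at least 67 counts in every library. The lowest count belonged to Dkk2, and for the other members it was 288 or more. Pecam1 (66.6 to 152 FPKM) and Cdh5 (67.6 to 111 FPKM), which define endothelium, were high in all 16 libraries, while Ptprc, which encodes CD45, stayed at or below 0.52 FPKM and Epcam at or below 0.80 FPKM. FPKM, fragments scaled to transcript length and to the depth of the library, allows levels to be compared between genes. Other cell types still left traces. The summed FPKM of 8 epithelial genes, Epcam among them, overlapped between the groups. It ran from 62.1 to 566 in Young Sham and from 135 to 648 in Aged Sham. In Young Bleo it ran from 147 to 537 and in Aged Bleo from 165 to 412. Other sums moved with the groups. The summed FPKM of 12 leukocyte genes ran from 23.4 to 40.3 in Young Sham, from 53.7 to 163 in Aged Sham, from 147 to 422 in Young Bleo and from 195 to 1343 in Aged Bleo. That of 9 aerocyte genes ran from 2158 to 2520 in Young Sham, from 1644 to 2627 in Aged Sham, from 285 to 1421 in Young Bleo and from 273 to 1848 in Aged Bleo. In bulk RNA a larger share of arterial ECs cannot be told apart from more RNA of these genes per cell.

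The start regions of 4 members are printed because Gja4, Gja5 and Bmx were the members that rose in every comparison of injured with sham mice, and Sema3g was the member called lower with age. Each run is the 120 bases before the RefSeq start (build GRCm38.p6, the same assembly as mm10), 5′ to 3′ on the gene's own strand. Capitals mark GGAA or its reverse complement TTCC, the core bound by ETS factors such as ERG, the factor the study was built around. The windows are Gja4 at chr4:127314040-127314159 (minus strand), Gja5 at chr3:97032282-97032401 (plus), Bmx at chrX:164258194-164258313 (minus) and Sema3g at chr14:31217753-31217872 (plus).
Gja4: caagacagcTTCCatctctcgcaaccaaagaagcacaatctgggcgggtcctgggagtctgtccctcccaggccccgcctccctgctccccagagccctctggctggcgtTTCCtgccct
Gja5: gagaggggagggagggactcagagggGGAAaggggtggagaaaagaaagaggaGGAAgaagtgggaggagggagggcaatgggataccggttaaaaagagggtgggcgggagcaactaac
Bmx: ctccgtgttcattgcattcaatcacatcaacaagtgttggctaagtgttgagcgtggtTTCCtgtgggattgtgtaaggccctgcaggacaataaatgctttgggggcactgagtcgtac
Sema3g: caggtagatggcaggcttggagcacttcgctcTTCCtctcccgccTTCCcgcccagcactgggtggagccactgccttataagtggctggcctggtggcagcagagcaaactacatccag
The core was present in this window in 7 of the 9 members with an entry, and in 73.4% of all 32851 start regions of the same length. The longer form AGGAAG (or CTTCCT), which contains the core, was present in 2 members, Gja5 and Sema3g, and in 16.3% of all start regions. In Gja5 it began 68 bases before the start, and in Sema3g 89 bases before it. No core lay in the windows of Unc5b or of either Fbln5 start. A match of 4 to 6 letters is a description of the sequence and says nothing on binding.

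Levels spanned more than 2 orders of magnitude among the members. Over the 16 libraries the mean was 158 FPKM for Gja4, 111 for Mgp, 18.3 for Efnb2, 17.4 for Fbln5, 11.3 for Gja5, 9.96 for Sema3g, 7.56 for Unc5b, 6.71 for Fbln2, 3.64 for Bmx and 0.655 for Dkk2. Neighbours in this order overlapped in their ranges over libraries, except that Mgp lay above Efnb2 and Bmx above Dkk2 throughout. Fbln2 varied most, by 9.63-fold between its lowest and highest library, and Unc5b least, by 2.33-fold. All 10 are protein-coding, and no other gene of the table overlapped the span of any member.

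**Figure D1:**
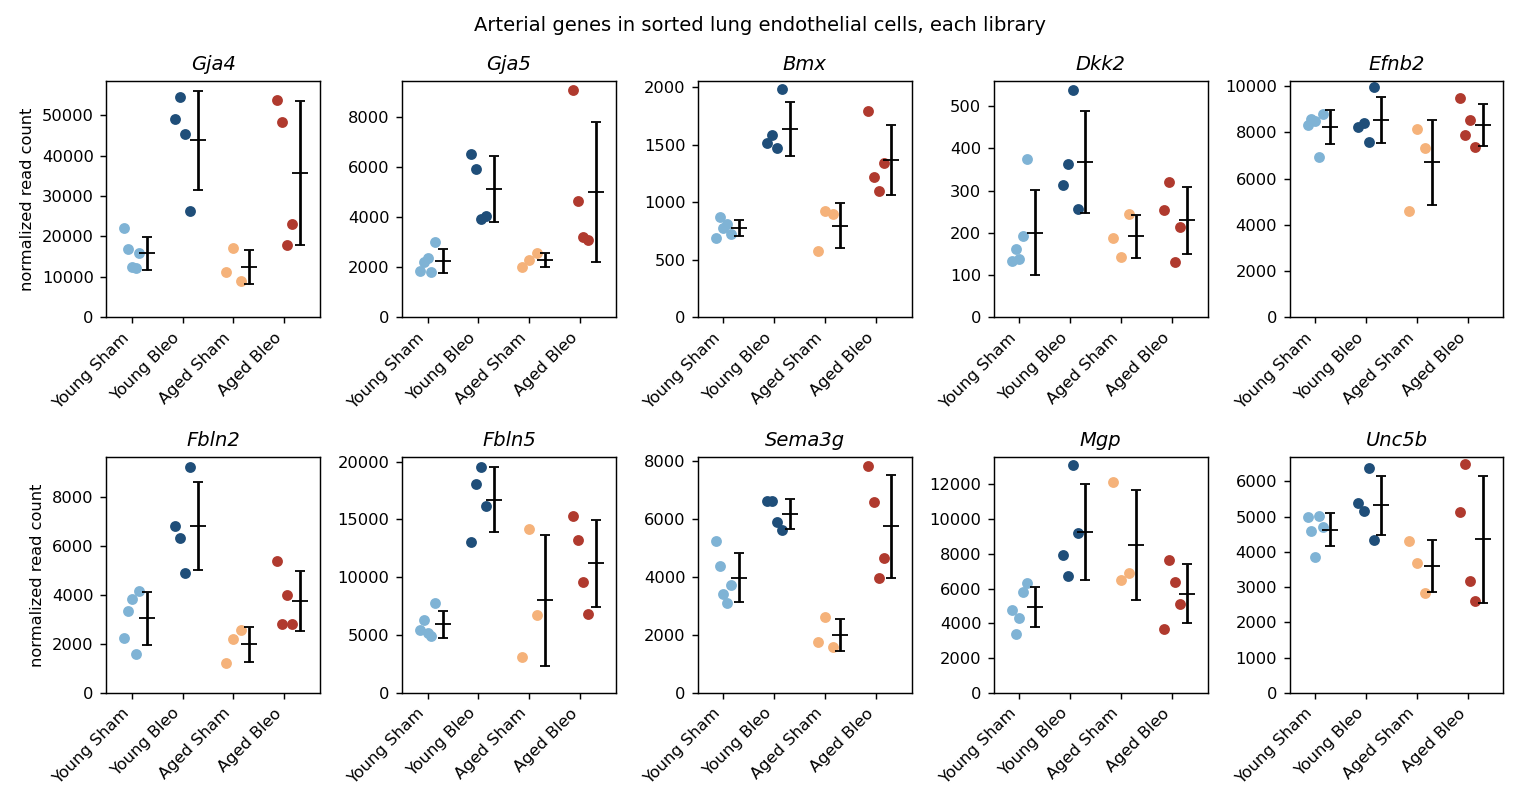
Normalized read counts (DESeq2 size factors, linear axes from 0) of the 10 arterial genes in each library of the 4 groups. Points are libraries and bars are the mean ± SD; all 4 Young Bleo libraries lie above all 5 Young Sham libraries for Gja4, Gja5, Bmx, Fbln2, Fbln5, Sema3g and Mgp.

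Injury in young mice was the comparison in which most members moved. Against Young Sham, 7 of the 10 genes rose in Young Bleo and none fell: Fbln5, Gja4, Gja5, Fbln2, Bmx, Mgp and Sema3g. The log2 fold changes ran from 0.64 for Sema3g to 1.50 for Fbln5. The other members, Dkk2 (0.87, adjusted p = 0.076), Unc5b (0.20, adjusted p = 0.657) and Efnb2 (0.05, adjusted p = 0.887), did not pass the test. All 10 estimates were above 0, with a median of 0.99, where the median over all 18515 genes tested was 0.01. A gene was called when DESeq2 gave an adjusted p of at most 0.05 and a log2 fold change of at least 0.5 in size, and 7.57% of all genes were called higher. On simulated counts DESeq2 made more false calls than this threshold allows and edgeR far fewer, so calls by DESeq2 alone are the less certain ones. With edgeR's quasi-likelihood test 6 members were called, without Sema3g (adjusted p = 0.059), against 5.69% of all genes called higher. The groups did not overlap for the 7 called genes, a pattern seen in this direction in 8.96% of the 13774 genes with a mean of at least 50 normalized counts. Leaving out Young Bleo 19 brought the number called to 5, without Mgp and Sema3g, and leaving out Young Bleo 20 brought it to 8, with Dkk2.

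In aged mice fewer members passed. Against Aged Sham, 4 genes rose in Aged Bleo: Sema3g by 1.53 on the log2 scale, Gja4 by 1.52, Gja5 by 1.13 and Bmx by 0.77, where 3.39% of all genes were called higher. With edgeR Sema3g alone was called (adjusted p = 0.040), against 0.448% of all genes called higher, and the other 3 had adjusted p from 0.057 to 0.086. Those 4 genes and Fbln2 did not overlap between the groups, which was so in this direction for 5.87% of genes. Fbln2 had a log2 fold change of 0.92 with an adjusted p of 0.098. Mgp was the member with an estimate below 0 (-0.58, adjusted p = 0.287). Leaving out Aged Bleo 1 or Aged Sham 13 left 2 called members, Gja4 and Sema3g. Without Aged Sham 14 Fbln5 also passed (1.19, adjusted p = 0.011).

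Against the uninjured young lung, as the study framed its aged comparison, Aged Bleo had 4 higher members: Gja4 (1.17), Gja5 (1.15), Fbln5 (0.92) and Bmx (0.81). DESeq2 called 6.58% of all genes higher here. Under edgeR Fbln5 was lost (adjusted p = 0.106), and the share of all genes was 4.2%. Gja5 and Bmx were the members whose groups did not overlap, as 6.24% of genes did not in this direction. Leaving out Aged Bleo 1 or Aged Bleo 2 left 2 called members, Gja5 and Bmx, with Gja4 at 0.91 (adjusted p = 0.078) and 0.99 (adjusted p = 0.057).

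Age by itself moved a single member. In Aged Sham against Young Sham, Sema3g fell by 1.00 on the log2 scale (SE 0.241, DESeq2 adjusted p = 0.0031), to 0.50 of the young level, where 1.11% of all genes were called lower. edgeR gave an adjusted p of 0.056 and called no member, with 0.164% of all genes called lower. Sema3g is among the endothelial genes that the study picked out of these same libraries, so its direction here is not independent evidence. The study also places Sema3g with the markers of general capillary ECs. Mgp (0.78, adjusted p = 0.122) and Fbln2 (-0.61, adjusted p = 0.393) had the next largest estimates and did not pass. In normalized counts Mgp was higher in all 3 Aged Sham libraries than in any Young Sham library, a separation found in 5.44% of genes, but its FPKM values overlapped (97.0 in Aged Sham 14, 103 in Young Sham 25). On both scales Sema3g was lower without overlap, as 4.2% of genes were in normalized counts. The median over the members was -0.18, against 0.02 over all genes.

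No member was called between the injured groups. In Aged Bleo against Young Bleo all 10 estimates were below 0, with a median of -0.29, and 2 members had an unadjusted p under 0.05, Fbln2 (-0.86, interval -1.49 to -0.23, adjusted p = 0.210) and Mgp (-0.70, interval -1.25 to -0.14, adjusted p = 0.275). DESeq2 called 1.03% of all genes and edgeR, which also called no member, 0.0437%. These 10 estimates share the same 8 libraries, and the 95% intervals of the other 8 members included 0. The test of whether the response to bleomycin differed with age also called no member with DESeq2 (0.381% of all genes called) or edgeR (0.00546%). There 3 members had an unadjusted p under 0.05: Mgp (-1.48), Fbln5 (-1.01) and Sema3g (0.89), with adjusted p of 0.062, 0.592 and 0.330 by DESeq2. Without Aged Sham 14 the Fbln5 difference was -0.31 (adjusted p = 0.882). The contrasts above share sham or injured libraries, so their values for a gene are not separate measurements.

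**Figure D2:**
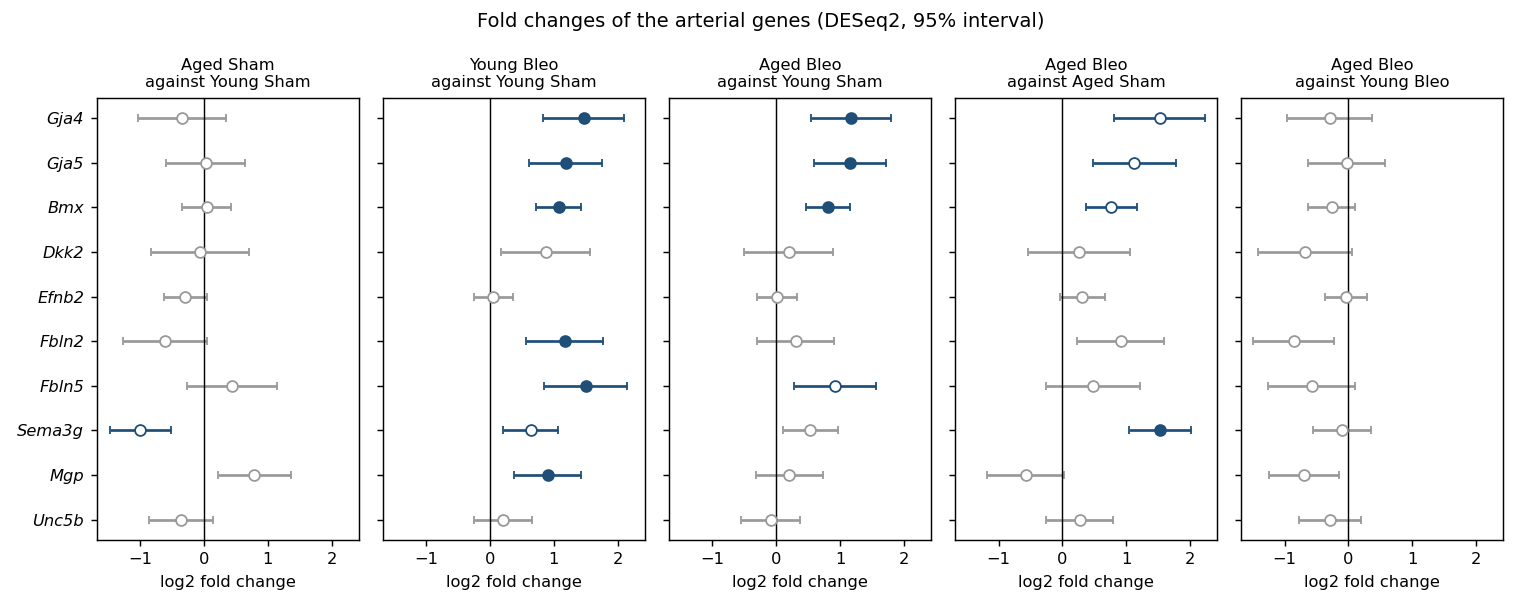
DESeq2 log2 fold changes of the 10 arterial genes in 5 comparisons, with 95% intervals. Blue marks genes called by DESeq2, filled where edgeR also called them, and grey marks genes that were not called; filled points are most frequent in Young Bleo against Young Sham, with 6 of 10.

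Gja4 and Gja5 encode arterial connexins, channel proteins that join neighbouring arterial ECs and, in the vessel wall, ECs to smooth muscle. Gja4 read 129, 103, 75.0, 67.2 and 91.1 FPKM in the Young Sham libraries and 291, 324, 259 and 166 FPKM in the Young Bleo libraries. In Aged Sham it read 56.0, 91.1 and 51.3 FPKM, and in Aged Bleo 316, 264, 108 and 138 FPKM. Every injured library of the aged group was above every aged sham library, while Aged Bleo 3 lay within the range of Young Sham. The fold change was 2.77 in young mice (log2 1.47, SE 0.322, DESeq2 adjusted p = 0.00017, edgeR 0.0090) and 2.88 in aged mice (log2 1.52, SE 0.367, DESeq2 adjusted p = 0.0023, edgeR 0.057). Their difference was 0.06, with an interval of -0.90 to 1.01.

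Gja5 was lower in level and moved in the same comparisons. It read 5.82, 7.18, 7.61, 5.31 and 9.23 FPKM in Young Sham and 20.6, 18.7, 12.0 and 13.6 FPKM in Young Bleo. It read 5.41, 6.48 and 7.70 FPKM in Aged Sham and 28.4, 13.5, 10.3 and 9.85 FPKM in Aged Bleo, so no injured library at either age was as low as any sham library. The log2 fold change was 1.18 in young mice (SE 0.290, DESeq2 adjusted p = 0.00094, edgeR 0.014) and 1.13 in aged mice (SE 0.330, DESeq2 adjusted p = 0.017, edgeR 0.086). Aged Bleo 1 held the highest Gja5 level of all, and without it the aged response was 0.67 with an adjusted p of 0.140. Without Aged Sham 13 it was 1.05 with an adjusted p of 0.079. Among 3 other connexin genes tested, Gja1 rose in Young Bleo (1.36, SE 0.329, DESeq2 adjusted p = 0.00079, edgeR 0.014) and in Aged Bleo against Young Sham (0.95, DESeq2 adjusted p = 0.039, edgeR 0.092), and no other passed.

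Bmx encodes a Tec-family tyrosine kinase that among ECs is enriched in arteries. Its level was 2.21, 2.91, 2.56, 2.45 and 2.29 FPKM in Young Sham and 4.87, 5.13, 4.60 and 6.84 FPKM in Young Bleo. It was 1.58, 2.67 and 2.77 FPKM in Aged Sham and 5.75, 3.62, 3.60 and 4.38 FPKM in Aged Bleo. All 8 injured libraries were above all 8 sham libraries. The young response was 1.08 on the log2 scale (SE 0.180) and had the lowest adjusted p of any member in that comparison (DESeq2 3.2e-07, edgeR 0.0023), and the aged response was 0.77 (SE 0.205, DESeq2 adjusted p = 0.0073, edgeR 0.066). Leaving out Aged Bleo 1 or Aged Sham 13 ended the aged call (0.61, adjusted p = 0.059, and 0.59, adjusted p = 0.065). Of the other 4 Tec-family kinases, Tec passed in Aged Sham against Young Sham (1.57, SE 0.420, DESeq2 adjusted p = 0.010, edgeR 0.086), and none passed after bleomycin.

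Efnb2 and Unc5b encode surface proteins that steer vessel growth, the ephrin-B2 ligand and a receptor of netrins. Neither was called in any of the 6 comparisons. Efnb2 averaged 18.9 ± 2.24 FPKM (SD, n = 5) and 14.1 ± 4.35 (n = 3) in the young and aged sham groups, and 20.0 ± 3.25 (n = 4) and 18.9 ± 2.38 (n = 4) in the young and aged injured groups. The lowest of the 16 values was 9.06 FPKM in Aged Sham 13. The interval of its young response, -0.26 to 0.36 on the log2 scale, was the narrowest among the members together with that against Young Sham in Aged Bleo, -0.30 to 0.33. Unc5b averaged 7.81 ± 0.63 and 5.51 ± 0.81 FPKM in the young and aged sham groups and 9.11 ± 1.07 and 7.24 ± 2.68 FPKM in the young and aged injured groups. Its Aged Bleo values were 8.71, 10.2, 5.51 and 4.51 FPKM, replicates 1 and 2 above and replicates 3 and 5 below every Young Sham library.

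The partners of these surface proteins were mixed. Of 7 measured genes of ephrin-B ligands and Eph receptors, Ephb1 rose in Young Bleo (3.49, SE 0.632, DESeq2 adjusted p = 2.9e-06, edgeR 0.0053). No other gene of that list passed in any comparison. Of 8 measured netrin-pathway genes, Ntn1, which encodes netrin-1, rose in Young Bleo (0.96, SE 0.243, DESeq2 adjusted p = 0.0014, edgeR 0.015), in Aged Bleo against Young Sham (0.97) and in Aged Bleo against Aged Sham (1.01, edgeR adjusted p = 0.068). Ntn4, a netrin of basement membranes, fell by 0.87 in Young Bleo (DESeq2 adjusted p = 0.034, edgeR 0.087). Unc5c was called lower in Aged Bleo against Aged Sham (-3.85, DESeq2 adjusted p = 0.018, edgeR 0.12), but it was barely detected, at 0.049 FPKM or less in every library.

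Sema3g encodes a secreted semaphorin, which acts through neuropilins and plexins. It is in wide use as an arterial marker, while the study counts it among general capillary markers. It was the member called between the sham groups. Young Sham read 11.4, 9.93, 7.65, 6.38 and 7.98 FPKM and Aged Sham 3.31, 5.15 and 3.34 FPKM, without overlap. After bleomycin it read 14.6, 14.5, 12.5 and 13.1 FPKM in Young Bleo and 17.1, 13.3, 8.82 and 10.3 FPKM in Aged Bleo, so the injured groups overlapped. The aged response was 2.89-fold (log2 1.53, SE 0.251, DESeq2 adjusted p = 2.9e-06, edgeR 0.040) and the young one 1.56-fold (log2 0.64, SE 0.220, DESeq2 adjusted p = 0.029, edgeR 0.059). Their difference, 0.89 with an interval of 0.24 to 1.55, had an adjusted p of 0.330. The young call ended when Young Bleo 17, 18 or 19 or Young Sham 23, 24 or 25 was left out (0.56 to 0.66, adjusted p from 0.056 to 0.094). Without Aged Bleo 3 or Young Sham 21 Sema3g also passed in Aged Bleo against Young Sham (0.68, adjusted p = 0.022, and 0.65, adjusted p = 0.043).

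Receptors of class 3 semaphorins went both ways. Of 7 genes, Nrp2 rose in Young Bleo (1.95, SE 0.268, DESeq2 adjusted p = 2.4e-10, edgeR 0.0010), in Aged Bleo against Young Sham (1.61) and in Aged Bleo against Aged Sham (1.32, DESeq2 adjusted p = 0.0014, edgeR 0.04996). Nrp1 fell in Young Bleo (-1.33, SE 0.214, adjusted p = 8.9e-08) and in Aged Bleo against Young Sham (-0.88, adjusted p = 0.0011), as did Plxna1 (-1.56 and -1.20). Plxna2 passed in Aged Bleo against Young Sham (0.51, DESeq2 adjusted p = 0.042, edgeR 0.085).

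Dkk2 encodes a secreted modulator of Wnt signaling and was the member of lowest level. It read 0.36, 0.45, 0.38, 0.48 and 0.99 FPKM in Young Sham and 0.85, 0.99, 1.40 and 0.74 FPKM in Young Bleo. The highest Young Sham value, in replicate 25, lay among the injured libraries, and without that library Dkk2 passed in Young Bleo (1.23, adjusted p = 0.0021). It also passed without Young Bleo 20 (1.02, adjusted p = 0.043). Aged Sham (0.34 to 0.63 FPKM) and Aged Bleo (0.36 to 0.80 FPKM) overlapped. Of 5 measured relatives and receptors, Dkk3 fell in Young Bleo (-1.66, DESeq2 adjusted p = 0.0011, edgeR 0.022) and in Aged Bleo against Young Sham (-1.24, DESeq2 adjusted p = 0.029, edgeR 0.094), where the Wnt co-receptor gene Lrp6 rose (0.76, DESeq2 adjusted p = 0.00096, edgeR 0.016).

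Fbln5 and Fbln2 encode fibulins, matrix proteins that take part in elastic fibres. Fbln5, needed to assemble them, read 9.25, 11.1, 9.15, 7.87 and 12.9 FPKM in Young Sham and 22.4, 31.0, 32.4 and 29.6 FPKM in Young Bleo. It was spread widely in Aged Sham, at 4.48, 21.8 and 11.1 FPKM, and read 25.9, 20.8, 16.6 and 11.8 FPKM in Aged Bleo. The young response was 2.82-fold (log2 1.50, SE 0.331, DESeq2 adjusted p = 0.00020, edgeR 0.0096) with no overlap. The aged response was 0.49 (SE 0.377, adjusted p = 0.542), and Aged Bleo against Young Sham was 0.92, at the threshold (DESeq2 adjusted p = 0.0497, edgeR 0.106). That call ended when Aged Bleo 1, 2 or 3 or Young Sham 21, 22, 23 or 24 was left out (0.74 to 0.99, adjusted p from 0.051 to 0.241). The estimate for age, 0.44, became -0.26 without Aged Sham 14.

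Fbln2, found in the matrix of larger vessels, was higher after injury in young mice. It read 3.76, 5.87, 6.66, 2.55 and 6.88 FPKM in Young Sham and 11.6, 10.8, 8.06 and 16.8 FPKM in Young Bleo (log2 1.17, SE 0.307, DESeq2 adjusted p = 0.0024, edgeR 0.021). In aged mice the sham values were 1.74, 3.34 and 4.20 FPKM and the injured ones 9.11, 4.39, 6.91 and 4.83 FPKM, which did not overlap though the test did not pass. Fbln2 in Aged Bleo overlapped Young Sham and, in 1 library, Young Bleo. Its response differed between the ages by -0.25, with an interval of -1.16 to 0.66.

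Of 14 other measured genes of fibulins and elastic fibres, 1 passed in Young Bleo, Fbn1 for fibrillin-1 (1.30, SE 0.356, DESeq2 adjusted p = 0.0036, edgeR 0.024), a share near the 7.57% of all genes called higher. Fbn1 and Efemp2 rose in Aged Bleo against Young Sham (1.01 and 0.50, edgeR adjusted p = 0.095 and 0.053). Fbln1 fell in Aged Bleo against Young Sham (-2.03, SE 0.366, DESeq2 adjusted p = 3.3e-06, edgeR 0.0063), against Aged Sham (-1.64, edgeR adjusted p = 0.059) and against Young Bleo (-2.15, edgeR adjusted p = 0.057). In Aged Sham against Young Sham, Mfap4 (2.25, DESeq2 adjusted p = 3.9e-05, edgeR 0.019) and Efemp1 (2.11, edgeR adjusted p = 0.13) rose and Loxl2 fell (-1.88, DESeq2 adjusted p = 0.0014, edgeR 0.056). In Aged Bleo against Aged Sham, Loxl2 rose (2.13, edgeR adjusted p = 0.044) and Mfap4 (-2.34, edgeR adjusted p = 0.044) and Loxl1 (-1.19, edgeR adjusted p = 0.082) fell, where 2.44% of all genes were called lower. Mfap5 was lower in Aged Bleo than in Young Bleo (-1.29, edgeR adjusted p = 0.22), and the responses of Mfap4 differed with age (-2.55, DESeq2 adjusted p = 0.013, edgeR 0.34). Eln, which encodes elastin itself, was not called in any comparison.

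Mgp encodes matrix Gla protein, an inhibitor of calcification and of bone morphogenetic proteins (BMPs). It was the member whose mean was lower in Aged Bleo than in Aged Sham. Young Sham read 78.8, 58.7, 74.1, 90.8 and 103 FPKM and Young Bleo 132, 113, 211 and 163 FPKM, without overlap (log2 0.90, SE 0.268, DESeq2 adjusted p = 0.0083, edgeR 0.032). Leaving out Young Bleo 19, the highest, gave 0.69 with an adjusted p of 0.079. Aged Sham read 172, 97.0 and 110 FPKM and Aged Bleo 61.0, 117, 108 and 86.0 FPKM. Every young injured library was above the young sham mean. The aged groups overlapped, and the aged sham mean was raised by Aged Sham 13, without which the aged response went from -0.58 to -0.23 (adjusted p = 0.769). The difference of the responses was -1.48 (SE 0.406, interval -2.28 to -0.69, DESeq2 adjusted p = 0.062, edgeR 0.387). It passed with DESeq2 when any of 6 libraries was left out (Aged Bleo 2, Aged Sham 14 or 15, Young Bleo 18 or 20, or Young Sham 25), at -1.49 to -1.66 with adjusted p from 0.022 to 0.0496. Without Aged Sham 13 it was -1.14 with an adjusted p of 0.236.

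Smooth muscle cells and fibroblasts also make much Mgp, and their traces moved with the groups. The summed FPKM of 12 fibroblast genes was 47.6 to 88.7 and 108 to 271 in the young and aged sham groups, and 32.1 to 71.9 and 17.2 to 78.8 in the young and aged injured groups, highest in Aged Sham 13, which also held the highest aged Mgp value. The sum of 13 smooth muscle and pericyte genes was 55.4 to 117 and 32.9 to 55.2 in the sham groups and 20.2 to 52.8 and 13.8 to 25.1 in the injured ones, again young before aged. In both lists all genes were tested, and 11 of the 13 smooth muscle and pericyte genes fell in Aged Bleo against Young Sham, where 3.14% of all genes were called lower. Acta2 ranged from 7.51 to 56.0 FPKM and Col1a1 from 0.68 to 2.95 FPKM over the libraries. Of the 12 fibroblast genes 2 rose with age, Mfap4 and Pdgfra (2.42, edgeR adjusted p = 0.13), and 4 fell in Aged Bleo against Aged Sham (2 with edgeR), with Dcn at -1.56 (edgeR adjusted p = 0.044). The part of these cells in the Mgp values was not tested.

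Of 10 measured genes around BMP signaling and Gla modification, 4 passed in Young Bleo. The BMP receptor genes Bmpr2 (-1.01, SE 0.210, DESeq2 adjusted p = 6.1e-05) and Acvrl1 (-0.86, adjusted p = 0.00017) and the inhibitory Smad6 (-1.12, adjusted p = 0.0012) fell, and Bmp2 rose (1.55, SE 0.444, adjusted p = 0.0060). edgeR called the same 4. Acvrl1 also fell in Aged Bleo against Young Sham (-0.69, DESeq2 adjusted p = 0.0047, edgeR 0.037), and no gene of the list passed between the sham groups.

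Other arterial genes gave a wider view. Of 24 genes, 9 rose and 4 fell in Young Bleo against Young Sham, with a median of 0.61, where 6.35% of all genes were called lower (8 and 3 with edgeR). The genes that fell were Nrp1 (-1.33, DESeq2 adjusted p = 8.9e-08, edgeR 0.0023), Acvrl1 (-0.86), the Notch ligand gene Dll4 (-0.91, DESeq2 adjusted p = 0.0017, edgeR 0.021) and Clu, for clusterin (-0.55, DESeq2 adjusted p = 0.042, edgeR 0.088). In Aged Bleo against Young Sham 9 rose and 2 fell (Nrp1 and Acvrl1, median 0.26), and in Aged Bleo against Aged Sham 6 rose and Clu fell (-0.78, edgeR adjusted p = 0.082, median of the list 0.55), where edgeR called 1 higher and none lower. The chemokine gene Cxcl12 rose in all 3 (3.35 with an adjusted p of 7.5e-09, then 2.66, then 2.60 with an edgeR adjusted p of 0.059), as did the taurine transporter gene Slc6a6 (2.72 with an adjusted p of 7.4e-07, then 2.19, then 2.13 with an edgeR adjusted p of 0.079). The study describes Cxcl12 as a marker of general capillary ECs. Sox17, a SoxF transcription factor of arterial ECs, rose in Young Bleo (2.22, SE 0.361, adjusted p = 1.3e-07) and in Aged Bleo against Aged Sham (1.69, edgeR adjusted p = 0.061). In the last comparison the proprotein convertase gene Pcsk5 had the lowest adjusted p (1.76, DESeq2 adjusted p = 4.4e-05, edgeR 0.044). Edn1, for endothelin-1, rose in Aged Bleo against Young Sham (1.85, SE 0.369, adjusted p = 3.4e-05), and so did Depp1 (3.44, SE 0.730, adjusted p = 0.00013). Both were also higher in Young Bleo. Edn1 read 34.6 to 64.4 FPKM there and 16.2 to 22.6 FPKM in Young Sham. Depp1 read 93.4 to 268 FPKM in Young Bleo and 16.3 to 26.0 FPKM in Young Sham. In Aged Sham against Young Sham the chemokine receptor gene Cxcr4 fell (-1.71, SE 0.367, DESeq2 adjusted p = 0.00047, edgeR 0.041) and no other gene of the list passed. Htra1 was lower in Aged Bleo than in Young Bleo (-0.87, DESeq2 adjusted p = 0.037, edgeR 0.25).

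Venous genes were counted the same way. Of 10, 4 rose and none fell in Aged Sham against Young Sham, Ptgis (1.05, DESeq2 adjusted p = 8.1e-05, edgeR 0.017), Slc6a2 (1.43, DESeq2 adjusted p = 0.0011, edgeR 0.035), Bst1 (0.81, edgeR adjusted p = 0.11) and Prss23 (0.76, edgeR adjusted p = 0.14), where 2.24% of all genes were called higher. In Young Bleo 1 rose, Slc6a2 (0.83, DESeq2 adjusted p = 0.033, edgeR 0.068). Another 3 calls were made in Aged Bleo against Young Sham, all higher: Bst1 (1.05, DESeq2 adjusted p = 1.6e-05), Slc6a2 (1.49, DESeq2 adjusted p = 2.8e-05) and Vwf (0.83, DESeq2 adjusted p = 0.0076), each also called by edgeR. Ptgis fell in Aged Bleo against Aged Sham (-0.68, DESeq2 adjusted p = 0.032, edgeR 0.10), and Bst1 was higher in Aged Bleo than in Young Bleo (0.88, DESeq2 adjusted p = 0.0068, edgeR 0.22). The difference between arterial and venous genes was not tested.

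The sum of general capillary genes, like Sema3g, was lower in Aged Sham. This sum of 8 genes was 913 to 993 FPKM in Young Sham, 638 to 820 in Aged Sham, 843 to 981 in Young Bleo and 834 to 946 in Aged Bleo, so the sham groups did not overlap. With age 2 of the 8 fell with both tools, Kit, for the stem cell factor receptor (-1.29, DESeq2 adjusted p = 3.1e-05, edgeR 0.019), and Aplnr, for the apelin receptor (-1.34, DESeq2 adjusted p = 0.00023, edgeR 0.032). DESeq2 called 1.11% of all genes lower there, and the median of the list was -0.40. Gpihbp1 and Hilpda had medians of 111 and 266 FPKM in Young Sham and of 110 and 263 FPKM in Aged Sham. After bleomycin in aged mice 3 rose, Kit (1.38, edgeR adjusted p = 0.044), Ptprb (0.68, edgeR 0.054) and Cd93 (0.93, edgeR 0.093). In Young Bleo Gpihbp1 (1.03) and Cd93 (0.76) rose and Hilpda fell (-1.21), each with both tools. Over the 16 libraries Sema3g correlated with this sum at r = 0.79, and at 0.67 after the group means were taken off. With the sum of 24 other arterial genes r was 0.81, and 0.69 after the group means were taken off. The part of general capillary ECs in the Sema3g values was not tested.

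Genes of other cell types also rose in the comparison in which most arterial genes did. Of 7 genes of lymphatic ECs, 4 rose in Young Bleo against Young Sham (3 with edgeR), with a median of 1.19, among them Ccl21a, for a chemokine of lymphatic vessels (1.87, DESeq2 adjusted p = 2.5e-09, edgeR 0.0014). The lymphatic sum was 241 to 335 FPKM in Young Sham, 658 to 1473 in Young Bleo, 222 to 324 in Aged Sham and 276 to 586 in Aged Bleo, and none of its genes passed in Aged Bleo against Aged Sham. All 6 mesothelial genes rose in Young Bleo with both tools, from a sum of 0.095 to 1.54 FPKM to one of 5.93 to 18.0 FPKM, and 4 of them rose in Aged Sham (3 with edgeR). Of the 12 leukocyte genes 4 rose in Young Bleo and 6 in Aged Bleo against Young Sham, led by Cd68 (4.60 and 5.57) and Lyz2 (3.07 and 4.27). The sum of 5 platelet genes was 270 to 511 FPKM in Young Sham, 109 to 246 in Young Bleo, 627 to 3384 in Aged Sham and 65.0 to 482 in Aged Bleo, and 4 of the 5 rose with age (1 with edgeR) and fell after bleomycin in aged mice (2 with edgeR). Whether the rise was particular to arterial genes, and the part of these cells in it, was not tested.

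Genes of aerocytes were lower after injury in young mice. All 9 fell in Young Bleo against Young Sham with DESeq2 (6 with edgeR), with a median of -1.82, and 3 fell in Aged Bleo against Young Sham (none with edgeR). They included Apln, for the ligand apelin (-1.90, DESeq2 adjusted p = 1.9e-06, then -1.09, adjusted p = 0.017), and Kdr, for the main receptor of VEGF (-1.64, DESeq2 adjusted p = 0.00081, then -1.26, adjusted p = 0.020). None passed with either tool in Aged Bleo against Aged Sham, with a median of -1.04. Within groups, too, libraries with a low aerocyte sum had more of some members. Over the 16 libraries, the deviation of log2 levels from the group means correlated with that of the aerocyte sum at r = -0.87 for Gja4, -0.77 for Gja5, -0.72 for Unc5b and -0.71 for Sema3g, and at -0.12 for Bmx, 0.00 for Efnb2 and -0.00 for Fbln2. For Dkk2, Fbln5 and Mgp r was -0.37, -0.34 and 0.24. All these values come from the same libraries and are relative to each library's total. Aged Bleo 1 and 2, with aerocyte sums of 273 and 439, read 316 and 264 FPKM of Gja4, and Aged Bleo 3 and 5, with 1848 and 1485, read 108 and 138 FPKM. Young Bleo 20, with the highest aerocyte sum of its group at 1421, held the lowest Gja4 level and the highest Bmx, Efnb2 and Fbln2 levels of its group. The leukocyte sum moved the other way, with r of 0.82 for Gja4 and 0.77 for Sema3g. The aerocyte sum was not the only one that Gja4 followed within groups. For Gja4 r was -0.79 with the fibroblast sum, -0.79 with the pan-endothelial sum and 0.70 with the sum of other arterial genes. Gja5 had r of -0.76 with the platelet sum. The part of cell make-up in the changes of the members was not tested.

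**Figure D3:**
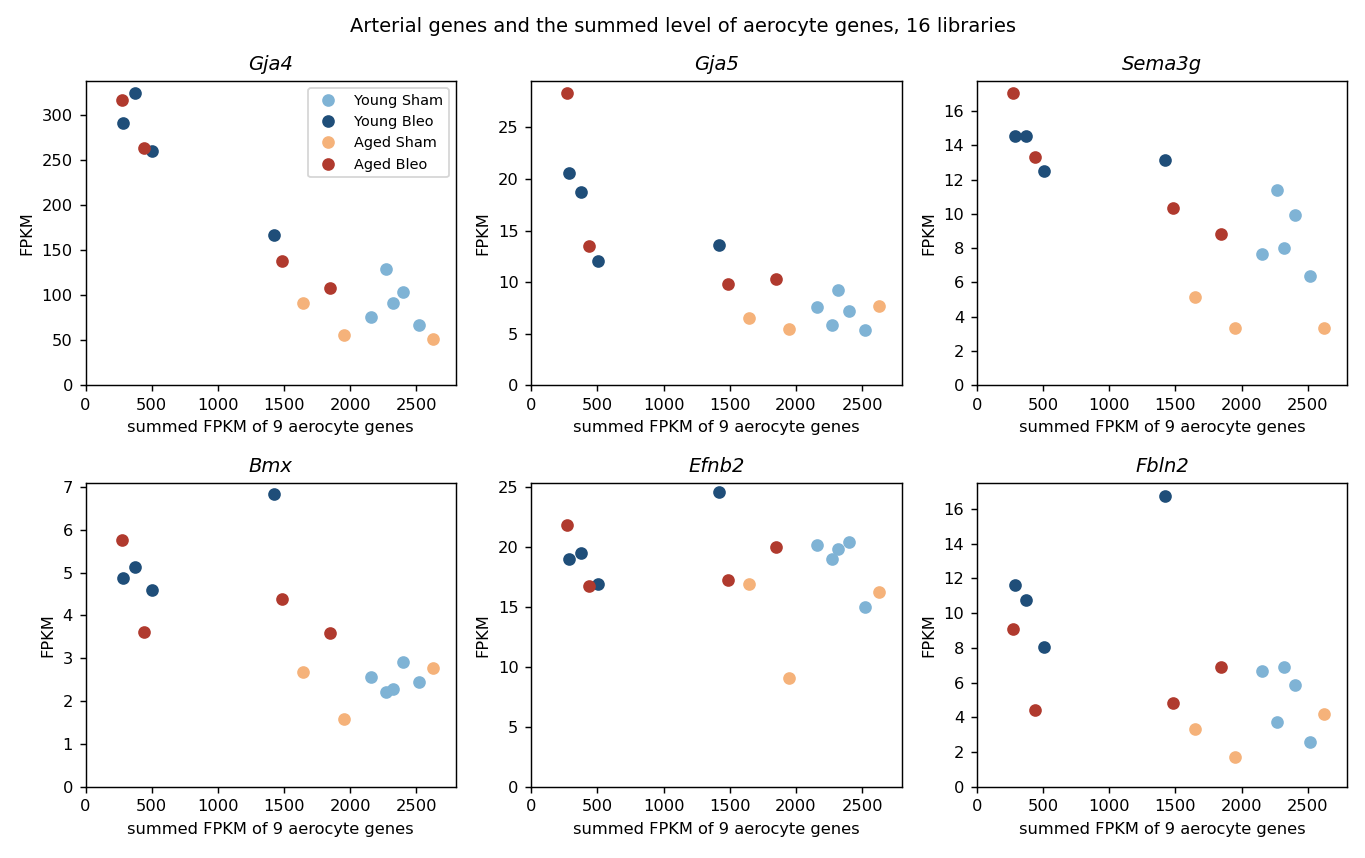
FPKM of 6 arterial genes (vertical axes from 0) against the summed FPKM of 9 aerocyte genes in each of the 16 libraries, colored by group. The highest Gja4, Gja5 and Sema3g values lie at sums under 505, while Efnb2 shows no such order and Young Bleo 20, at 1421, has the highest Bmx, Efnb2 and Fbln2 values.

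Expressed as a share of the summed FPKM of 8 pan-endothelial genes, all 10 members had a higher mean in Young Bleo than in Young Sham, Efnb2 (0.734% to 1.06%) and Unc5b (0.302% to 0.488%) included, which were not called in counts. In the aged groups 9 had the higher mean after injury, and Mgp went from 5.55% to 5.23%. Gja4 was 3.61 ± 1.00% (Young Sham), 14.1 ± 4.74% (Young Bleo), 2.92 ± 1.04% (Aged Sham) and 12.2 ± 7.03% (Aged Bleo) of that sum, as mean ± SD with n of 5, 4, 3 and 4. Bmx was 0.096 ± 0.014%, 0.284 ± 0.036%, 0.102 ± 0.028% and 0.250 ± 0.083%, and Sema3g 0.337 ± 0.084%, 0.735 ± 0.122%, 0.173 ± 0.051% and 0.723 ± 0.292% in the same order. The sum itself was lower after injury, at 1716 to 2123 in Young Bleo against 2410 to 2828 in Young Sham, which raises these shares. Its largest part was Cldn5, for the tight junction protein claudin-5, whose median was 1516 FPKM in Young Sham and 792 FPKM in Young Bleo (log2 -0.92, DESeq2 adjusted p = 4.3e-06, edgeR 0.0042). Of the 8 genes, Cldn5 was the one called lower and 2 were called higher in Young Bleo, Erg and Emcn, with a median over the list of 0.00.

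The members did not form a single block within groups. Of 45 pairs, 43 were positively correlated over the 16 libraries (median r = 0.57), and 31 after the group means were taken off (median r = 0.32). Gja4 and Sema3g tracked each other most closely (r = 0.93 for deviations), followed by Efnb2 with Fbln2 (0.83), Efnb2 with Fbln5 (0.77), Gja4 with Unc5b (0.74) and Efnb2 with Bmx (0.72). Mgp ran opposite to Bmx (-0.70), Efnb2 (-0.61) and Fbln2 (-0.54). All points share the 16 libraries and their differences in cell make-up.

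**Figure D4:**
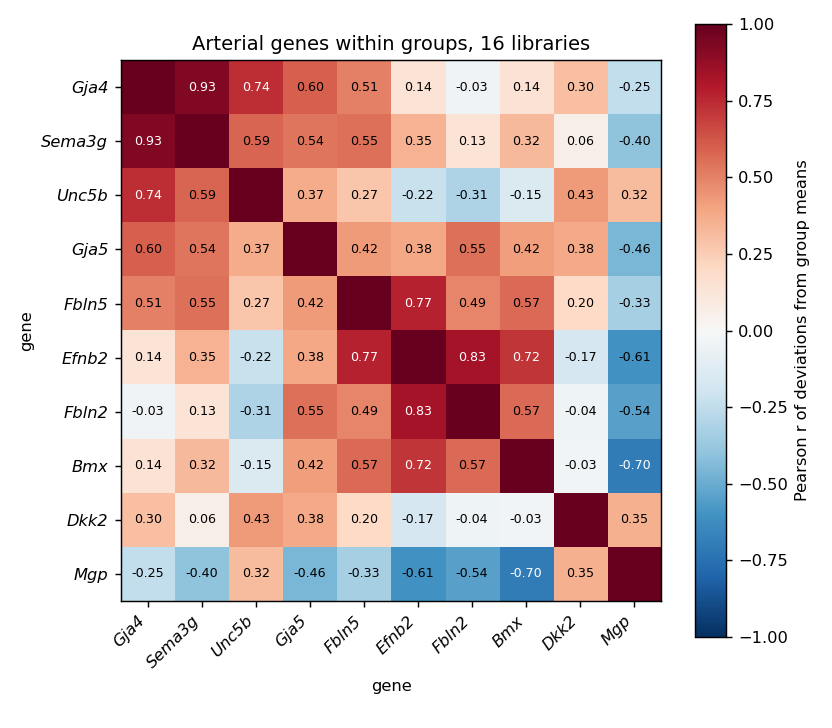
Pearson correlation between each pair of arterial genes over 16 libraries, computed on log2 normalized counts after subtracting group means. Red is positive and blue negative; Gja4 with Sema3g (0.93) and Efnb2 with Fbln2 (0.83) are the reddest squares, and Mgp is blue against Bmx (-0.70).

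The mean log2 level of the 10 members was 11.55 ± 0.17 and 11.38 ± 0.22 in the young and aged sham groups and 12.46 ± 0.06 and 12.04 ± 0.37 in the young and aged injured groups (SD). Among 13764 other genes, the 10 whose log2 levels correlated best with the mean standardized level of the members over the 16 libraries were Lrrc3b (r = 0.97), Adam23, Fkbp10, Rasgrp3, Vwa1, Nos3, Lpcat3, St3gal4, Rgcc and Kctd12b (r = 0.95). Nos3, which encodes endothelial nitric oxide synthase, went from a mean of 6.35 FPKM to 19.1 with injury in the young groups and from 5.10 to 13.0 in the aged ones. Lrrc3b went from 1.88 to 18.0 and from 1.35 to 8.41 FPKM, and Rgcc from 18.5 to 251 and from 13.2 to 57.1 FPKM. By Spearman correlation Adam23 came first and Lrrc3b second, while Lpcat3 ranked 133. These correlations include the differences between groups. After the group means were taken off, the ranks of these genes ran from 4 for Rasgrp3 to 134 for Rgcc, with Lrrc3b at 7 and Nos3 at 43.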

How the data were processed

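RNA-seq libraries of sorted lung ECs from 16 mice were used, each treated as 1 animal, as the study describes. The labels name a low-input cDNA kit and the study's methods a poly(A) kit, and strand, handling of multi-mapped reads and annotation release are not given in the sources used here. Reads were aligned to mm10 with STAR 2.5.2b and counted with featureCounts, per the labels. The authors deposited whole-number counts per gene, which entered the tests, and FPKM, computed by the authors, used for levels and for sums of marker genes. Columns were matched to samples by name. Per the study, purity after sorting was not tested.

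DESeq2 1.42.0, the study's test, was fitted to all 16 libraries in 1 model (R 4.3.3), with p-values adjusted by Benjamini-Hochberg over all genes tested. A gene was called at an adjusted p of at most 0.05 and a log2 fold change of at least 0.5 in size. The difference of responses was the age by treatment interaction. Alternatives were edgeR 4.0.16 quasi-likelihood, limma 3.58.1 (voom, and trend on log2(FPKM + 0.1) or log2(FPKM + 1)), other size factors and filters, fits of the compared groups alone, and leaving out each library. The scripts were tested on simulated data for age and for young injury, where DESeq2 recovered more of the changed genes than edgeR or voom and made several times as many false calls, more than its threshold allows; it was kept because the study used it, with edgeR beside it. Depth was 20907113 to 71035301 counts per library, and p-values measure the spread between these libraries.

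The members and all marker and pathway lists were chosen with earlier results of these data known. All 10 members are named in each comparison. From every other list at most 4 called genes per comparison, those of lowest DESeq2 adjusted p, are named with the counts of the list (lists of other cell types are given mainly by their sums, with fewer names and not in every comparison), and the 10 genes most alike are those with the highest Pearson correlation with the mean standardized level of the members among genes with a mean of at least 50 normalized counts. Start regions came from RefSeq (GRCm38.p6), in which 9 of the 10 symbols matched. No replicate number is used in more than 1 group, so libraries were not paired. No batch or date is given in the labels.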

Additional observations from a re-analysis of the deposited data

Results flagged for a closer look

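Dkk2 in Young Sham replicate 25 stood apart from the rest of its group, at 375.45 normalized counts where the other Young Sham libraries lay between 134 and 192. Efnb2 in Young Sham replicate 24 was likewise low, at 6948.46 normalized counts where the others lay between 8312 and 8814. In such a check of the highest and lowest library, chance alone marks about 1 group in 20, and 30 groups of the members were examined. The other result is Mgp, whose response to bleomycin in aged mice minus that in young mice was -1.48 on the log2 scale. Every Young Bleo library was above its sham mean and every Aged Bleo library below its own, but the aged sham mean was raised by Aged Sham 13 (12135 normalized counts, the others 6481 and 6881), and Aged Bleo 2, at 7643, lay above those others. The fitted difference did not pass (DESeq2 adjusted p = 0.062, edgeR 0.387).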

How the results depend on the processing

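Of 1100 single-gene values under an alternative, 1001 kept their direction and side of the threshold, 43 lost the call, 11 gained it and 45 changed sign. The number of members called in Young Bleo against Young Sham was 6 or 7 under every other test, scaling and filter run and 5 to 8 when a library was left out. In Aged Sham against Young Sham it was 0 instead of 1 with edgeR and with limma voom. In Aged Bleo against Young Sham it was 2 instead of 4 with limma voom and on log2(FPKM + 0.1) and log2(FPKM + 1), and 2 to 4 without a library. In Aged Bleo against Aged Sham it was 1 with edgeR, 1 with limma voom, 2 on log2(FPKM + 1), 2 in a fit of the compared groups alone, and 2 to 5 without a library. For the difference of responses it was 0 to 1 without a library, the 1 being Mgp. Over all genes DESeq2 called 621, 2578, 1800, 1080, 190 and 74 in the order age, young injury, aged injury against Young Sham, aged injury, injured groups, difference, and edgeR 158, 1793, 1043, 146, 8 and 1. No value that passed the DESeq2 test changed sign under these alternatives. For age, on log2(FPKM + 0.1) and log2(FPKM + 1), Gja5 was -0.092 and -0.083 and Bmx -0.12 and -0.079, and Gja4 in the difference was -0.017 with limma voom. Without a library the ranges that crossed 0 were, for age, Bmx -0.072 to 0.23, Gja5 -0.063 to 0.15, Dkk2 -0.29 to 0.29 and Fbln5 -0.26 to 0.82. For Aged Bleo against Young Sham they were Dkk2 -0.011 to 0.55, Efnb2 -0.054 to 0.068 and Unc5b -0.35 to 0.093, and for Young Bleo against Young Sham Efnb2 -0.028 to 0.11. For the injured groups they were Efnb2 -0.11 to 0.042, Gja5 -0.48 to 0.14 and Sema3g -0.29 to 0.039, and for the difference Gja4 -0.21 to 0.36, Gja5 -0.51 to 0.12 and Unc5b -0.19 to 0.25. Fewer libraries enter the fits that leave one out, and otherwise the cause of a change was not tested. No paired analysis was possible because the groups share no replicate numbers. Dkk2, at 67 counts in its shallowest library, is the member most limited by depth.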
